A study of Mus musculus with 2 samples.

Results

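Among the 14103 TET2 peaks found in adipocytes differentiated in culture, 236 lay in CpG-rich DNA outside the genes of the GENCODE M21 annotation and away from their start sites. Such sequences are known as orphan CpG islands. Each of the 236 had its midpoint on an autosome, more than 3 kb from any transcription start site (TSS) and outside all gene bodies, in the mouse genome build GRCm38. Each was under 80% repeat-masked over its length, with a GC content of at least 50% and a CpG observed/expected ratio of at least 0.6. That ratio divides the CpG dinucleotides present by the number that the C and G content would give by chance. The −log10 p of the peaks did not enter the choice, though the peaks and their limits came from the authors' peak caller. The filters left 6887 autosomal peaks beyond 3 kb of a TSS, 3504 of these outside gene bodies and 2104 of those under the masking limit. Of the 2104 peaks, 1868 failed the GC or the CpG limit and are called CpG-poor intergenic peaks here. A further 4317 peaks met the same GC and CpG limits within 1 kb of a TSS and are called CpG-rich promoter peaks.

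The cells were stem cells from mouse inguinal white fat, used at passage 3 and turned into adipocytes by IBMX, dexamethasone and insulin. No genetic alteration was given for them. Chromatin was fixed, sonicated and immunoprecipitated with an antibody against TET2, and 1 such library was compared with 1 input library, so no value below has a replicate and every interval covers counting error only. A peak list has no expression values, so the adipocyte identity of the cells was not checked against markers. The deposited list gives no read totals. The study states its sequencing yield as a volume of data, so the number of reads behind each peak is unknown.

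CpG islands are stretches in which CpG dinucleotides have escaped the loss that methylation of cytosine brings about over evolution, and most of them cover promoters. Those away from annotated promoters include start sites of unlisted transcripts, enhancers of developmental genes and CpG-rich repeats. TET2 oxidises 5-methylcytosine to 5-hydroxymethylcytosine, the first step of active demethylation. Unlike TET1 and TET3, it has no CXXC zinc finger, the domain with which many proteins bind unmethylated CpG, and it is brought to DNA by partner proteins.

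The sequence at the centre of 10 of the peaks is shown to make these composition rules visible. All are 200 bases around the peak midpoint on the forward strand of GRCm38, in lower case with every CpG in capitals. The first 4 belong to the peaks with the largest −log10 p among those that matched a single place in the genome and were under 20% masked, and each is named after its nearest protein-coding gene. Throughout, a distance to a gene or its TSS runs to the GENCODE M21 transcript start of that gene closest to the peak. That start need not be the first one of the gene.

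Fbln2, chr6:91285447-91285646: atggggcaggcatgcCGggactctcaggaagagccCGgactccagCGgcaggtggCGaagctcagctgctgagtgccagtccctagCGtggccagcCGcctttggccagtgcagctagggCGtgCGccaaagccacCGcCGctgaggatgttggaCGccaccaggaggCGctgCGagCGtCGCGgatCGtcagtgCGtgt

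Abcc4, chr14:118473846-118474045: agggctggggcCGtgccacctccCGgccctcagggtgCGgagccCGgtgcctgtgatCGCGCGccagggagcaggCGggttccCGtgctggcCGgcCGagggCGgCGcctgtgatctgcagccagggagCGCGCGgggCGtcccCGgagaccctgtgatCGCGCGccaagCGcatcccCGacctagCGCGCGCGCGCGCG

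Ski, chr4:155150738-155150937: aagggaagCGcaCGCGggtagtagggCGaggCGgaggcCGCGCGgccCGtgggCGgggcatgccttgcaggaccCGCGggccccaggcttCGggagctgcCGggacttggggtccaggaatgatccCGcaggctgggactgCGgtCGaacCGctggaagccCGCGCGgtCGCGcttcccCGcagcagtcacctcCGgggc

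Pard6b, chr2:168050277-168050476: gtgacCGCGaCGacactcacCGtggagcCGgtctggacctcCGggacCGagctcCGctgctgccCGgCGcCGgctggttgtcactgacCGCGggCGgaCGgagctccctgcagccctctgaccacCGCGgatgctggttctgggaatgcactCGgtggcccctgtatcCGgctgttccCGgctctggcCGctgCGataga

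These 4 runs had 18, 30, 25 and 22 CpG and a GC content of 68, 78, 74.5 and 70%. The Abcc4 run ended in an alternating CG tract and held a stretch of 17 bases at its base 50 again at its base 152. The next sequence is from the peak with the most CpG per 100 bases of all 236, near Tank, which codes for an adaptor of TRAF signalling. It had 30 CpG in 200 bases.

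Tank, chr2:61656555-61656754: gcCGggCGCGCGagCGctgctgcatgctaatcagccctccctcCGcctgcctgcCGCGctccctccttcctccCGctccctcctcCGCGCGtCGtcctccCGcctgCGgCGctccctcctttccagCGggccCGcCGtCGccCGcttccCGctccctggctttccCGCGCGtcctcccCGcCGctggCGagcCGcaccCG

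The next is from the peak upstream of Rasgrf1, a gene expressed from the paternal copy. It had 14 CpG, the fewest of the 10, and 54.5% GC. A run of 16 bases starting at base 43 came again at base 116, and most of the CpG lay in the second part of the window.

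Rasgrf1, chr9:89879546-89879745: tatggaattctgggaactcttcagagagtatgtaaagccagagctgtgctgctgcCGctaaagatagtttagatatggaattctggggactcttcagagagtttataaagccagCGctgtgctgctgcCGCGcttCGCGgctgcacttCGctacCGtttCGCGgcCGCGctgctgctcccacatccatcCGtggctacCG

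The last 4 are from the peaks that overlapped an enhancer in the RefSeq annotation, near Wnt10a, Hmga2, Nkx2-5 and Msx3. They had 15, 17, 17 and 20 CpG.

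Wnt10a, chr1:74817030-74817229: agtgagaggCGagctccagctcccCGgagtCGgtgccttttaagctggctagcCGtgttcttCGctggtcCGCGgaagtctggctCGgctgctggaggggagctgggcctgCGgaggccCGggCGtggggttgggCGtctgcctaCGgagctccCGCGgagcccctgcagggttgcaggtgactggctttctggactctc

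Hmga2, chr10:120552611-120552810: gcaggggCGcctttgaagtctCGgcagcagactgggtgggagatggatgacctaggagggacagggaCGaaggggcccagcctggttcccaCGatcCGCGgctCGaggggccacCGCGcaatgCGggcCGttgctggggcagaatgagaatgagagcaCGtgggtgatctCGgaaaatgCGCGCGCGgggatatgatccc

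Nkx2-5, chr17:26849942-26850141: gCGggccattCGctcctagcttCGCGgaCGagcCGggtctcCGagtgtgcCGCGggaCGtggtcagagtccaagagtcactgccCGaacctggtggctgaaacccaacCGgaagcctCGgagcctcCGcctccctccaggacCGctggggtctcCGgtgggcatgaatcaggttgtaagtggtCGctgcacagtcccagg

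Msx3, chr7:140058241-140058440: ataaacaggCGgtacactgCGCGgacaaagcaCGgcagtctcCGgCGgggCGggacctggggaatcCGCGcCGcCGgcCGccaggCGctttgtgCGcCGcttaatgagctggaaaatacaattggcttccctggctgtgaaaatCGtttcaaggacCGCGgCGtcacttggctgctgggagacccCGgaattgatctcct

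The 236 peaks had a median GC content of 59.4% (range 50.1 to 73.8%) and a median CpG ratio of 0.704 (0.60 to 1.22). They held a median of 27.5 CpG each (11 to 94) over a median length of 430 bp. The peak with 94 CpG lay 103 kb downstream of Irx5, an Iroquois homeobox gene. CpG-rich promoter peaks were richer in both measures, with a median GC content of 67.3% and a median ratio of 0.830. The island around each peak was measured by sliding a 200 bp window that had to meet the GC and CpG limits, and 235 of the 236 contained such a window. The islands had a median length of 440 bp, against 830 bp at CpG-rich promoter peaks, and 95 of 236 (40.3%, exact 95% binomial interval 33.9 to 46.8) reached 500 bp. At promoter peaks 86.1% did. The 5 longest were at Otx1 (1360 bp), Mga (1220 bp), Tbr1 (1210 bp), Arid1b (1080 bp) and Ptma (1080 bp). Otx1 and Tbr1 code for transcription factors of the developing brain.

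**Figure D1:**
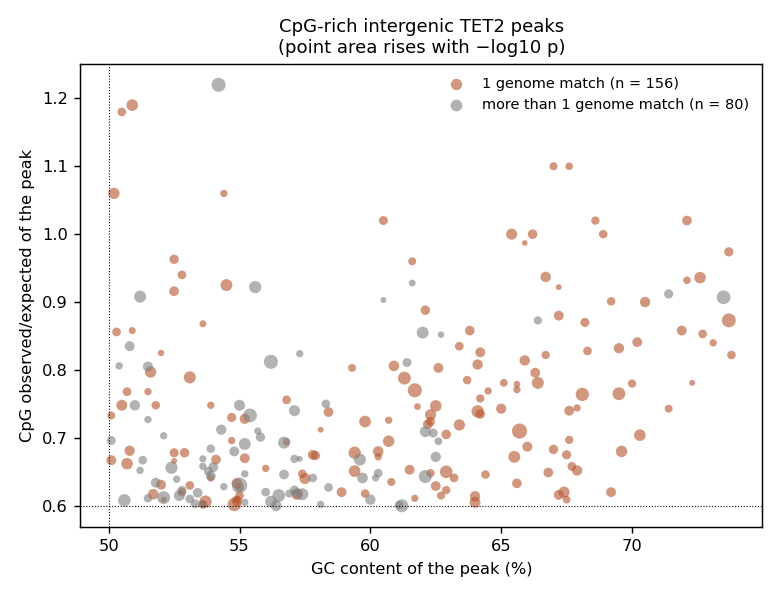
GC content (x axis, %) and CpG observed/expected ratio (y axis) of the 236 peaks, each a point whose area rises with its −log10 p. Dotted lines mark the limits of 50% and 0.6, and the 80 peaks that matched more than 1 place in the genome (grey) had a median GC content of 55.8%, against 62.3% for the 156 with a single match (orange).

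CpG-rich DNA between genes held TET2 peaks far more often than CpG-poor DNA there. The autosomes were divided into 400 bp windows and a window was scored when a peak midpoint fell in it. Of the 2787 intergenic windows that met the same position, masking, GC and CpG limits, 201 held a midpoint, which is 7.21% (6.28 to 8.24). Of 2275312 CpG-poor intergenic windows, 1914 did, or 0.0841% (0.0804 to 0.0880). The share was 14.4% (14.0 to 14.8) in CpG-rich windows within 1 kb of a TSS and 10.3% (9.26 to 11.3) in CpG-rich windows within genes over 3 kb from a TSS. The 3 CpG-rich classes thus differed beyond their intervals, with the intergenic class lowest. Windows in one island lie side by side, so they are not independent and the intervals are too narrow for that reason.

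Both GC content and the CpG ratio went with the share. A GC content of at least 50% with a ratio under 0.6 gave 0.403% (0.374 to 0.433), and a ratio of at least 0.6 with a GC content under 50% gave 0.782% (0.614 to 0.983). Within intergenic windows of 55 to 65% GC, the share was 0.647% at ratios under 0.2, 1.56% at 0.2 to 0.4, 6.52% at 0.4 to 0.6, 8.79% at 0.6 to 0.8 and 11.9% (7.43 to 17.8) above. The intervals of the last 3 bins overlapped, and the first 2 bins stood below the rest. At ratios of 0.6 to 0.8, the share ran from 0.392% (0.188 to 0.720) at 40 to 45% GC through 3.21% at 50 to 55% and 5.78% at 55 to 60% to 14.1% at 60 to 65% and 17.4% (11.7 to 24.5) at 65% or more. At 65% GC or more, intergenic windows reached 16.1% (13 to 19.7) and windows at a TSS 19.7% (19.1 to 20.3). Across ratio bins from 0.1 upward, the intergenic share was below that at a TSS, for example 4.86% against 15.3% at ratios of 0.8 to 0.9. With 1 antibody library and 1 input, binding of TET2 and recovery of GC-rich fragments that differs between the libraries cannot be told apart.

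**Figure D2:**
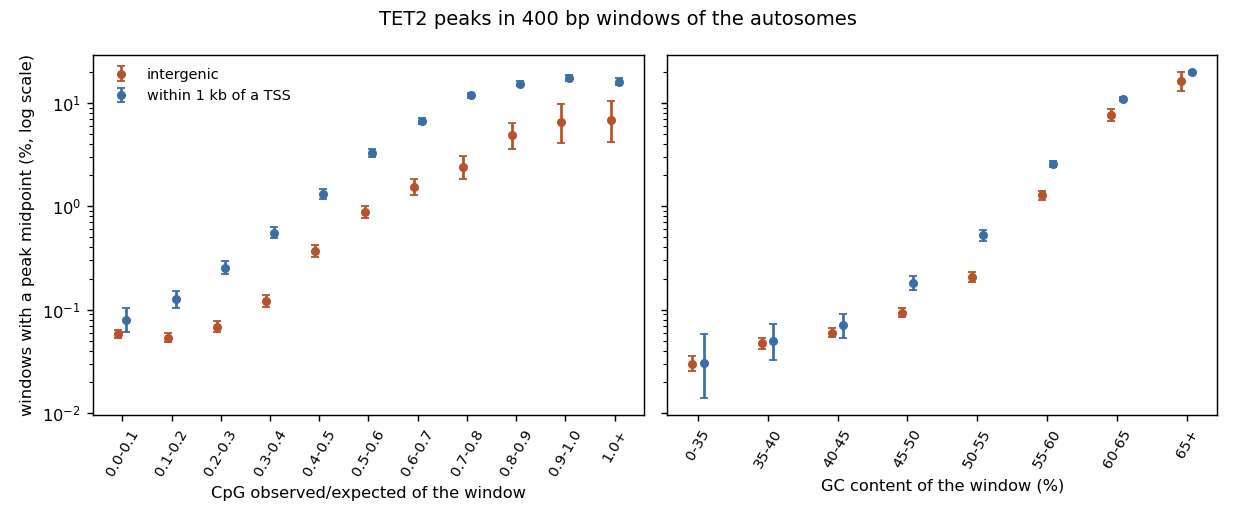
Percent of 400 bp autosomal windows that held a TET2 peak midpoint (y axis, log scale) by CpG observed/expected ratio (left) and by GC content (right), for intergenic windows (orange) and windows within 1 kb of a TSS (blue), with exact 95% binomial intervals. Intergenic windows ran from 0.0578% to 6.80% across the ratio bins and from 0.0300% to 16.1% across the GC bins.

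The −log10 p, as the peak caller used by the authors reported it, measures how far its fragments exceeded the background. It was a median of 6.86 (95% interval of the median 6.32 to 7.28) in the 236 peaks, with values from 3.95 to 14.6. CpG-poor intergenic peaks had a median of 6.06 (5.91 to 6.21) and CpG-rich promoter peaks one of 6.95 (6.82 to 7.05). The intergenic CpG-rich peaks therefore stood above the CpG-poor ones, and their interval overlapped that of the promoter peaks. A value of at least 5 was reached by 93.6% (89.7 to 96.4) of the 236, by 79.8% of the CpG-poor intergenic peaks and by 89.5% of the promoter peaks. A value of at least 10 was reached by 23 of the 236 (9.75%), by 6.05% of the CpG-poor intergenic peaks and by 11.1% of the promoter peaks. The highest of the 236 ranked 130th of all 14103 peaks, while values went up to 176 in the CpG-poor intergenic class and 202 in the promoter class.

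**Figure D3:**
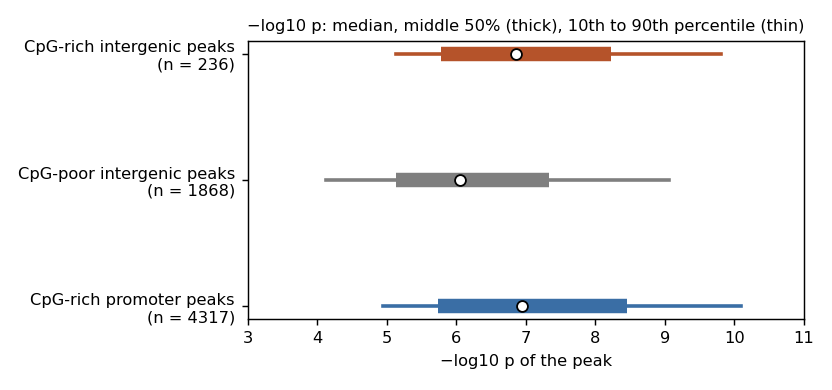
−log10 p (x axis) of the CpG-rich intergenic, CpG-poor intergenic and CpG-rich promoter peaks: the median is a white point, the middle 50% a thick bar, and the 10th to 90th percentiles a thin line. The median of the CpG-rich intergenic peaks, 6.86, lies between 6.06 and 6.95.

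Within the 236, the −log10 p had little relation to composition. Across the peaks, which share 1 library, its Spearman correlation was −0.05 with the CpG ratio, 0.02 with GC content, 0.01 with the masked share, 0.14 with the number of CpG and 0.31 with length. The Pearson values were −0.02, 0.03, 0.01, 0.11 and 0.25. The number of CpG counts over the whole peak and so includes its length. Peaks just inside the ratio limit (0.6 to 0.65) numbered 70 and had a median of 6.48 (6.21 to 7.34). The 89 peaks just outside it (0.55 to 0.6, GC at least 50%) had one of 7.34 (6.80 to 7.78), and these intervals overlapped. The 27 peaks with 50 to 52% GC and the 27 with 48 to 50% and a ratio of at least 0.6 both had a median of 7.34. Many peaks shared exactly the same value, such as 5.13, 6.21 or 7.34, so medians of small groups move in steps.

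The largest value, 14.6, belonged to a peak at chr2:98389481-98390153, 272 kb upstream of the predicted gene Gm10801. It was 71.8% masked and its sequence had 308 alignments in the genome at 90% identity or more over at least 100 bp. Next came a peak at chr6:91285207-91285888 with 14.0, 52 CpG, no masked base and a single match. It lay 19.7 kb downstream of the nearest GENCODE start of Fbln2, which codes for the extracellular matrix protein fibulin-2. The nearest RefSeq start, also of Fbln2, was 72738 bp away. A peak at chr14:118473626-118474267 (12.5) lay 56.0 kb downstream of the nearest GENCODE start of Abcc4, an ABC transporter. The nearest RefSeq start of any gene was 108068 bp from it. The peak at chr4:155150609-155151068 (12.3) had a GC content of 73.7%. It lay 37.5 kb downstream of the nearest GENCODE start of Ski, a repressor of TGF-β signalling. The nearest RefSeq start of any gene, that of Morn1, was 58528 bp away. Peaks with 12.4 lay 184 kb from Samd9l at chr6:3201159-3201551 and 11.5 kb from Tex50 at chr1:161170444-161171197, and each matched 4 places.

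The other peaks among the 10 largest were of mixed kinds. One at chr16:59239427-59240146 (12), 20019 bp from the olfactory receptor gene Olfr199, was 76.0% masked with 2587 matches. One at chr12:21784115-21784770 (12), 367 kb from Ywhaq, a 14-3-3 protein gene, was unmasked with 80 CpG, 15 matches and a RefSeq transcript starting 115 bp away. One at chr2:171059077-171059565 (11.7) lay 328 kb from Dok5. That at chr2:168050151-168050604 (11.4) lay 30.6 kb upstream of Pard6b, a cell polarity gene, but 512 bp from a start of Ripor3 that RefSeq predicts. Of these 10 peaks, 5 matched a single place. Among single-match peaks under 20% masked, those next in order after Pard6b lay near Msx3 (10.8), Dll4 (10.7), Snx10 (10.5), Nlrp4f (10.2), Aasdhppt (10.1) and Rbm34 (10.1).

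Distances to genes were compared between peaks only. Whether CpG-rich intergenic DNA without a peak lies as close was not tested. The 236 peaks lay closer to genes than the CpG-poor peaks did. Their median distance to the nearest TSS of any gene was 15724 bp (12939 to 18415), against 26012 bp (24147 to 27555), and to the nearest TSS of a protein-coding gene 31188 bp (25506 to 48342), against 94704 bp (85577 to 107424). They lay upstream of that TSS in 147 cases (62.3%, 55.8 to 68.5), against 56.9% (54.6 to 59.2) of CpG-poor peaks, and these intervals overlapped. The nearest protein-coding gene had a TET2 peak of its own within 1 kb of a TSS in 68 of 236 cases (28.8%, 23.1 to 35). The share was 32.4% (30.3 to 34.6) for CpG-poor peaks and 25.6% for all 20807 autosomal protein-coding genes, so the value for the 236 was near both. The next TET2 peak was a median of 56280 bp away, against 77170 bp for CpG-poor intergenic peaks and 44809 bp for CpG-rich promoter peaks. It lay within 10 kb in 24 cases (10.2%, 6.63 to 14.8), against 6.37% (5.31 to 7.57) and 11.3% (10.4 to 12.3).

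RefSeq lists transcripts of the same build that GENCODE M21 does not. Of the 236 peaks, 27 (11.4%, 7.68 to 16.2) had a RefSeq TSS within 1 kb, against 2.19% (1.58 to 2.97) of CpG-poor intergenic peaks and 11.1% (9.98 to 12.3) of all CpG-rich intergenic windows. The share was thus that of CpG-rich intergenic DNA as a whole. Of the 236, 40 (16.9%, 12.4 to 22.4) lay inside a gene that RefSeq lists. The nearest start was that of a long noncoding RNA in 15 cases, of an mRNA in 8 and of a tRNA in 2, and 20 of the 27 were computed models. With curated transcripts alone, 5 peaks (2.12%) were left. One of these lay 203 bp from a curated start of Pax2, which codes for a paired box factor of kidney and eye development, at chr19:44746584-44747025 (−log10 p 7.79). Another lay 440 bp from Cistr, a noncoding RNA, at chr15:102747057-102747641 (7.66). The other three were at Gm34507 (6.06), Gm38882 (3.95) and 4930563M20Rik (5.13). Model starts lay 236 bp from the Ebf3 peak (9.22, 60 CpG) and 47 bp from the Rhov peak (9.41). EBF3 is a relative of the adipocyte factor EBF1, and Rhov codes for a small GTPase. The 27 peaks had a median CpG ratio of 0.781 (0.726 to 0.908) and the other 209 one of 0.693 (0.672 to 0.720). Their medians of −log10 p, 7.34 (5.42 to 8.65) and 6.82 (6.32 to 7.21), had overlapping intervals.

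Genes that pattern the embryo were often the nearest gene. A list of developmental regulators (homeobox, forkhead, Sox and similar families, with Wnt, Fgf, Bmp and Notch ligands) was assembled for this purpose. It held the nearest protein-coding gene of 39 of the 236 peaks, or 16.5% (12 to 21.9), against 3.32% (2.55 to 4.23) of CpG-poor intergenic peaks. CpG-rich intergenic DNA lies near such genes in general, and the list held the nearest gene of 10.3% of all 2787 CpG-rich intergenic windows. On the same window grid, the share was 16.9% (12 to 22.8) of the 201 windows with a peak and 9.40% (8.28 to 10.6) of the 2500 windows that no peak touched. Among windows with a single genome match it was 22.4% (15.8 to 30.1) with a peak and 14.9% (13.1 to 16.8) without, and among windows of at least 60% GC it was 22.0% (14.6 to 31) and 13.9% (10.9 to 17.2). The intervals overlapped in both of these narrower comparisons.

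The 39 peaks belonged to 38 genes. The homeobox genes in the list were nearest to 18 peaks, with −log10 p from 4.12 to 10.8 and a median of 7.0. Forkhead genes were nearest to 5 (5.13 to 7.91), basic helix-loop-helix genes to 3 (4.12 to 6.21), Sox genes to 2 and Pax2 to 2. Signalling proteins were nearest to 6 (5.13 to 11) and Tbr1, Gata5 and Tfap2a to 1 each. Across the 39, the median −log10 p was 6.94 (6.21 to 7.34), and in the other 197 peaks it was 6.80 (6.24 to 7.34). Of the 39, 36 matched a single place in the genome (92.3%, 79.1 to 98.4), against 60.9% (53.7 to 67.8) of the other peaks. CpG-rich intergenic windows without a peak were alike near these genes, where 220 of 235 had a single match. Of all 2500 such windows, 1480 did. The 39 peaks lay a median of 16688 bp from the TSS of the gene, 22 of them within 20 kb. The gene had a promoter peak of its own in 13 cases (33.3%, 19.1 to 50.2), against 27.9% of the other peaks and 32.6% of the whole list.

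The homeobox group included Msx1 and Msx3. MSX factors act in limb, tooth and skull, and in the dorsal neural tube. The Msx3 peak (10.8) lay 9.25 kb upstream of the TSS, and Msx3 had no promoter peak. The Msx1 peak at chr5:37816978-37817476 (9.58) lay 7.36 kb downstream of the TSS, and Msx1 had a promoter peak too. Irx3, Irx4 and Irx5 each had a peak at a distance of 103 to 266 kb, with values of 6.32, 5.13 and 5.32. The POU genes Pou4f1 (7.16) and Pou4f3 (7.37), regulators of sensory neurons, had theirs within 10 kb. A peak 52.3 kb downstream of the nearest Hoxc4 start lay at chr15:103086520-103086897 (6.82) in an island of 1050 bp. The list did not hold every homeobox gene, and 2 outside it, Dmbx1 (8.65) and Noto (5.78), were also nearest to a peak. Nkx6-1, a regulator of pancreatic β-cells and motor neurons, had a peak with a value of only 4.12.

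Pax2 was the single gene of the list with a pair of peaks, 9.80 at chr19:44725939-44726337 and 7.79 at the RefSeq start given above, 20.7 kb apart. Sox2, a pluripotency and neural factor, had a peak 42.0 kb downstream of its TSS (8.46), and Sox17, an endoderm factor, one 74.4 kb upstream (7.34). The bHLH genes Neurog1 (4.12), Neurog2 (6.21) and Atoh1 (5.89), which start neuronal programmes, had peaks 5.57 to 7.0 kb from the TSS.

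Among signalling genes, the peak of Dll4, a Notch ligand of blood vessels, lay at chr2:119337739-119338312 (10.7) with 53 CpG, 9.49 kb downstream of the TSS. The larger value of the Fgf14 peak (11) came from a sequence with 419 matches, 65.1% masked, 103 kb upstream of the gene. Bmp4, which commits stem cells to the fat lineage, had a peak 7.84 kb upstream (5.13), and Bmp3 one 17.7 kb upstream (6.63). Wnt7b had one 43.5 kb upstream (6.12), which at 73.8% had the highest GC content of the 236. Wnt10b and Wnt10a hold back fat cell formation, and Wnt10a had a peak 23.8 kb downstream of its TSS (9.06), 313 bp from a tRNA gene.

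**Figure D4:**
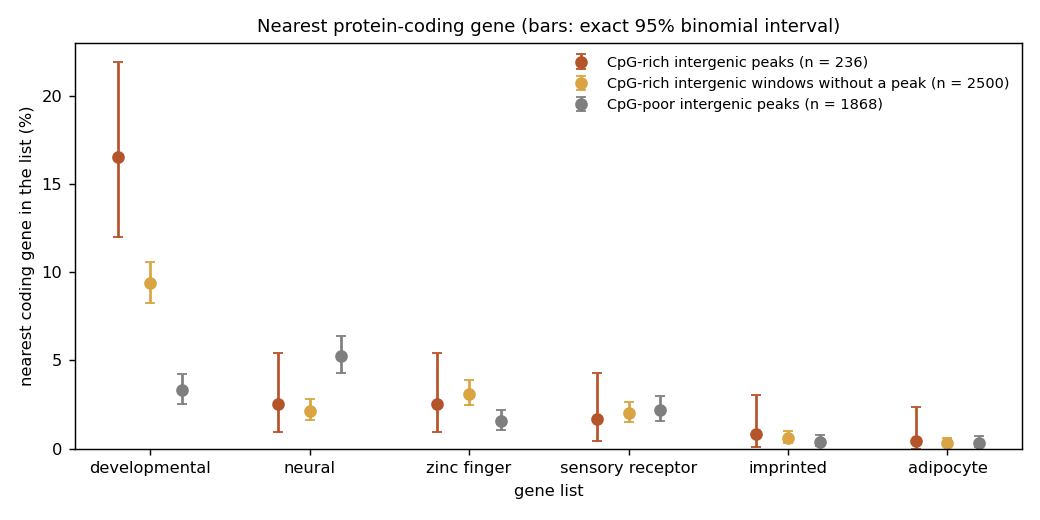
Percent of peaks or windows whose nearest protein-coding gene belonged to each list (y axis), for the 236 CpG-rich intergenic peaks (orange), the 2500 CpG-rich intergenic windows without a peak (yellow) and the 1868 CpG-poor intergenic peaks (grey), with exact 95% binomial intervals. In the developmental list the 3 shares are 16.5%, 9.40% and 3.32%, while in the other lists the interval of the 236 peaks contains the share of the windows.

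The other lists held few of the nearest genes. Neural genes were nearest to 6 peaks (2.54%, 0.939 to 5.45), against 2.08% of the CpG-rich intergenic windows. Zinc finger genes were also nearest to 6, against 3.16% of the windows, and sensory receptor genes to 4 (1.69%), against 1.97%. Of the adipocyte genes, Scd1 alone was a nearest gene, and this 1 case was 0.424% of the peaks, against 0.323% of the windows. It codes for stearoyl-CoA desaturase, and the peak at chr19:44388299-44388781 (8.37) lay 18.1 kb downstream of its TSS and matched 3 places. Of the circadian and metabolic nuclear receptors, there was 1 case, or 0.424% against 0.359% of windows. Imprinted genes were nearest to 2 peaks (0.847%), against 0.610% of the windows. That of Rasgrf1 lay at chr9:89879422-89879871 (9.80), 30.3 kb upstream of the TSS, with 25 CpG, a single match and 4 copies of TGCCGC in its central 400 bp. That of Snrpn was 275 kb from the TSS at chr7:60415324-60415698 (6.21), 78.1% masked with 358 matches.

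RefSeq lists 1006 enhancers on the autosomes, and 4 of the 236 peaks overlapped one (1.69%, 0.464 to 4.28). The share was 0.321% (0.118 to 0.698) of the CpG-poor intergenic peaks and 0.880% (0.552 to 1.33) of the CpG-rich intergenic windows without a peak, and the intervals overlapped. They were the Wnt10a peak at chr1:74816881-74817379 (9.06), the Hmga2 peak at chr10:120552437-120552985 (7.78), the Nkx2-5 peak at chr17:26849795-26850290 (5.54) and the Msx3 peak at chr7:140058126-140058557 (10.8), whose central sequences are printed above. HMGA2 is a chromatin protein that promotes growth of fat precursors, and NKX2-5 a heart factor.

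Repeated sequence formed a distinct portion of the set. Of the 236 peaks, 80 (33.9%, 27.9 to 40.3) matched more than 1 place in the genome and 49 matched at least 100. The share was 33.6% (31.5 to 35.8) in CpG-poor intergenic peaks and 40% (38.1 to 42.0) in CpG-rich intergenic windows without a peak, whose interval overlapped that of the 236. On the window grid it was 28.9% (22.7 to 35.6) of the windows with a peak, below those without. The 80 peaks had a median GC content of 55.8%, a CpG ratio of 0.663 and a masked share of 61.7%, against 62.3%, 0.739 and 5.14% in the 156 with a single match. They also lay farther from protein-coding genes, at a median of 115759 bp against 24834 bp. Their −log10 p did not stand apart, with medians of 6.63 (6.21 to 7.37) and 6.94 (6.32 to 7.28). In windows with a single match the share holding a peak was 8.45% (7.17 to 9.87), and in windows with more matches it was 5.40% (4.13 to 6.93). How reads with several alignments were treated was not given in the sources used here, and its part in these shares was not tested.

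The peaks were spread over all 19 autosomes at 0.0985 per Mb of sequenced bases (0.0863 to 0.112). The density was highest on chromosome 15, with 18 peaks or 0.179 per Mb (0.106 to 0.283), and lowest on chromosome 10, with 6 or 0.0472 per Mb (0.0173 to 0.103). On chromosome 15, 15 of 105 CpG-rich intergenic windows held a midpoint (14.3%, 8.22 to 22.5), while the other autosomes ranged from 3.33% to 9.28%. The last 5 Mb of the chromosomes held 20 of the 236 peaks (8.47%, 5.25 to 12.8), near the 7.07% of the CpG-rich intergenic windows, and 3.59% (2.79 to 4.53) of the CpG-poor intergenic peaks.

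Short motifs of 10 kinds of DNA-binding protein were searched on both strands, 200 bp each side of the midpoint. A match says only that the letters are present. The SP1 motif GGGCGG was in 125 of the 236 peaks (53.0%, 46.4 to 59.5), in 73.8% of CpG-rich promoter peaks and in 16.9% of CpG-poor intergenic peaks. The AP-2 motif GCCNNNGGC was in 85 (36.0%, 29.9 to 42.5), in 48.4% and in 15.8%. The C/EBP motif TTNNGCAA, that of a family central to fat cell differentiation, was in 27 (11.4%, 7.68 to 16.2), in 5.86% and in 11.2%. In 300 bp around the midpoint, the 3 motifs were in 46.6, 31.8 and 8.05% of the peaks, and in 35.7, 16.6 and 10.8% of 32851 RefSeq promoters of the same length. These promoters, unlike the peaks, were not selected by GC or CpG content. The motifs for SP1, AP-2 and ZFP57 can overlap, since all are made mostly of G and C.

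The window grid allowed windows with and without a peak to be set side by side. The SP1 motif was in 53.2% (46.1 to 60.3) of the 201 windows with a peak and in 38.3% (36.4 to 40.2) of the 2500 without. At 60% GC or more, the shares were 72.5% (63.1 to 80.6) of 109 windows and 71.7% (67.5 to 75.6) of 498, so the motif was no more frequent with a peak once GC content was alike, at medians of 65.2 and 64.1%. The AP-2 motif was in 38.3% (31.6 to 45.4) and 19.2% (17.7 to 20.8) of all windows, and in 49.5% (39.8 to 59.3) and 34.5% (30.4 to 38.9) of those with at least 60% GC. That difference was still there at like GC content, and it was 40.6% (32.4 to 49.1) against 20.7% (18.6 to 22.8) in windows with a single genome match. The C/EBP motif was in 8.96% (5.39 to 13.8) of windows with a peak and 13.8% (12.5 to 15.3) without, with overlapping intervals, and in windows of at least 60% GC in 3.67% (1.01 to 9.13) and 8.23% (5.97 to 11). In windows with a single match it was in 6.29% (2.92 to 11.6) and 13% (11.4 to 14.9).

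The printed centres show the same motifs at single peaks. GCCNNNGGC was found in the runs of Fbln2, Abcc4, Ski and Msx3 and in 2 copies in that of Tank. GGGCGG was found in those of Abcc4, Ski, Pard6b and Msx3. TTNNGCAA was in none of the 10 runs.

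Of the other motifs, the CREB/ATF motif TGACGT was in 7.46% (4.24 to 12) of windows with a peak and 12.6% (11.4 to 14.0) without, and at 60% GC or more in 7.34% and 8.23%. The rest had intervals that contained the share of the windows without a peak. They were the ETS motif CCGGAA (20.4% against 18.7%), the ZFP57 motif TGCCGC (22.4% against 19.1%), CACGTG, an E-box read by MYC and the clock proteins (11.4% against 11.1%), the NRF1 motif GCGCATGC (3.98% against 2.52%), the nuclear receptor half-site AGGTCA (13.9% against 16.6%) and a core of the CTCF motif (0.498% against 1.00%).

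**Figure D5:**
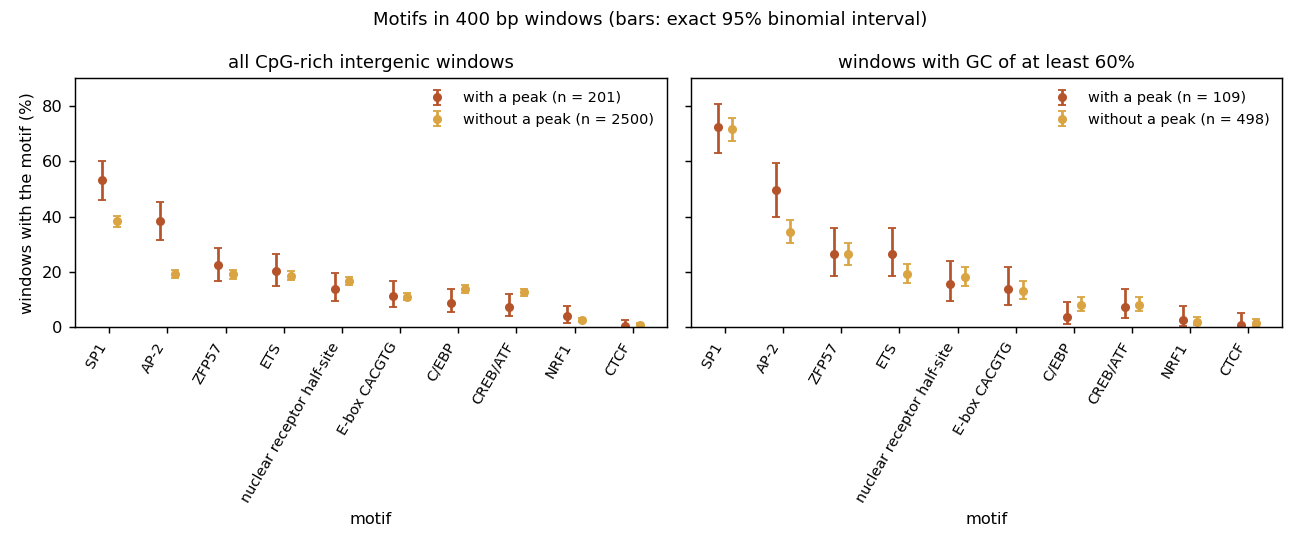
Percent of 400 bp CpG-rich intergenic windows with at least 1 match to each motif (y axis), with a peak midpoint (orange) and without any peak (yellow), over all such windows (left) and those with at least 60% GC (right), with exact 95% binomial intervals. AP-2 stands higher with a peak in both panels (38.3% against 19.2%, and 49.5% against 34.5%), and SP1 in the left panel only (53.2% against 38.3%, and 72.5% against 71.7%).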

How the data were processed

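TET2 ChIP-seq was carried out on 1 library of differentiated primary adipocytes, with 1 input library. The authors aligned the reads with bowtie1 and called peaks with MACS2 (version 2.1.0 in the submitters' processing notes) against the input. The p-value option stated for MACS2 corresponds to a −log10 p of 5, while some deposited values are below it. The deposited file has 1 row per peak, with its start, end and −log10 p from the peak caller. The methods name GRCm39, the processing notes mm10 (GRCm38). GRCm38 was used, no midpoint fell in one of its assembly gaps, and no coordinates were converted. The input library was not analysed here.

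Peaks were placed by midpoint. GENCODE M21, RefSeq annotation and sequence, and soft-masking are those of GRCm38. Windows were a fixed 400 bp grid. Genome matches were found with blastn 2.17.0 (at least 100 bp and 90% identity). Each alignment was counted, so 1 place split into several alignments counted more than once. Low-complexity sequence was filtered at the start of the search, which can hide matches. No match, not even to itself, was found for 7 CpG-poor intergenic peaks and 20 CpG-rich intergenic windows without a peak. Statistics used Python 3.11.15, numpy 2.4.6, pandas 2.3.3 and scipy 1.17.1, and figures matplotlib 3.10.9. The composition, motif, distance and interval steps were tested on simulated data. With 1 library, no p-value was computed. Shares have exact (Clopper-Pearson) 95% binomial intervals, densities exact Poisson intervals and medians order-statistic intervals.

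The peaks, gene lists and motifs were chosen with earlier results of these data known, and the windows with a peak, and the grouping of developmental genes, were added after seeing the data. Named peaks were the 10 with the largest −log10 p, the 10 largest with a single match and under 20% masked, the 5 with the most CpG per 100 bp, the 5 largest near developmental genes, all near adipocyte or imprinted genes and the 5 longest islands. Others named, among them the other developmental genes and those at RefSeq starts and enhancers, were chosen after their values were seen.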

Additional observations from a re-analysis of the deposited data

How the results depend on the processing

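The 10 values of the design were recomputed under 43 alternatives, and 28 moved by less than their counting interval or, for counts of peaks, by less than 1.5 times. The number of peaks was 117 with a GC content of at least 55% and a ratio of at least 0.65, 153 beyond 10 kb of any TSS and 23 at a −log10 p of at least 10, where the median −log10 p was 11. It ran from 179 to 334 over the limits on masked bases. The share of CpG-rich intergenic windows with a peak was 10.3% when 1 bp of a peak counted, 2.38% with 200 bp windows, 17.0% with 1000 bp windows, 12.4% with the stricter GC and CpG limits and 8.84% in windows under 20% masked. The share at a RefSeq TSS was 2.12% with curated transcripts only. The share with more than 1 genome match was 25.4% at 95% identity. The last 10 Mb of the chromosomes held 15.3% of the peaks and 13.2% of the windows. With 100 bp each side, the motifs GGGCGG, TTNNGCAA and GCCNNNGGC were in 36.9%, 5.93% and 25.8% of the peaks. Wider windows, looser overlap and shorter searches change these shares by construction. The share nearest to a developmental gene was 19.9% (14.2% of windows) with either flanking gene and 13.1% (8.83%) within 100 kb only.

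No paired analysis was possible because the antibody library stands alone. No value has a replicate error, the number of reads in the library is unknown, and single peaks of low −log10 p are imprecise.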

Other observations

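Peaks outside the rule resembled the 236 in part. Another 98 intergenic autosomal peaks met the GC and CpG limits but were at least 80% masked, and 71 had a CpG ratio of at least 0.6 with a GC content under 50%. On the X chromosome, 5 of the 42 intergenic peaks under the masking limit met both limits. Among the 236 peaks, 46 (19.5%, 14.6 to 25.1) had a genome match that fell on another of the 236. On chromosome 15, 15 of 105 CpG-rich intergenic windows held a midpoint, and its 18 peaks were at 18 different nearest genes, among them Wnt7b, Rbfox2 and Hoxc4.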
